A study of Caenorhabditis elegans with 6 samples.

Results

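The nuclear genes for subunits of the mitochondrial respiratory chain were examined in whole worms in which T25B9.1 had been knocked down. The 34 genes were taken by gene name from the 46748 genes of the deposited count table. They are 8 genes of complex I, 4 of complex II, 6 of complex III, 7 of complex IV, 8 of complex V and cyc-2.1 for the electron carrier cytochrome c. All 34 passed the filter on low counts that left 13374 genes for testing.

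The respiratory chain sits in the inner mitochondrial membrane. Complexes I and II pass electrons from NADH and succinate to ubiquinone, complex III passes them on to cytochrome c, and complex IV hands them to oxygen. Complexes I, III and IV pump protons as they work, and complex V, the ATP synthase, uses the returning protons to make ATP. Most subunits are encoded in the nucleus, while a small core set is encoded by mitochondrial DNA. In Caenorhabditis elegans several of these genes are known from mutants with altered lifespan or oxygen sensitivity, among them isp-1, mev-1, gas-1 and nuo-6.

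The samples were RNA of entire hermaphrodites of the laboratory wild-type strain N2 at an age of 2 days, a time that the series title reckons from the L4 larval stage. The groups differed only in the RNA interference (RNAi) target: 3 libraries carried L4440, the empty vector that serves as the RNAi control, and 3 carried RNAi against T25B9.1. The target gene encodes a glycine C-acetyltransferase, which works in the breakdown of threonine in mitochondria, and the comparison addresses which transcripts differ when it is depleted. Nothing in the labels shows that the replicates were grown apart, so the tests reflect variation among these 6 libraries, part or all of which may be technical.

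Depth was 26125982 to 40726259 counts per library, and each of the 34 genes had between 1285 and 85477 counts in every library. The knockdown target T25B9.1 (WBGene00012007) had 154 to 185 counts in the L4440 libraries and 36 to 73 in the RNAi libraries, with no overlap (log2 fold change -1.84, SE 0.184, adjusted p = 0.0525 with edgeR and 1.28e-11 with DESeq2). T25B9.1 RNAi replicate 1 stood apart: on the first principal component, which held 47.1% of the variance, it lay at 41.9 and the other 5 libraries between -27.5 and 4.6. Its summed level of 7 moulting-epidermis marker genes was 496 CPM (counts scaled to library size and, by the TMM method, to library composition), against 174 to 258 with L4440 and 250 and 265 in the other RNAi libraries. The 6 pharynx markers summed to 194 CPM there and to 57.9 to 82.5 CPM elsewhere, and the 6 body wall muscle markers to 1515 CPM there and to 766 to 1133 CPM elsewhere. The 8 oocyte and germline markers ran from 8903 to 9857 CPM with L4440 and from 9019 to 9763 CPM with RNAi, 6 intestine markers from 42611 to 66962 and from 55381 to 65410 CPM, and 6 neuron markers from 209 to 243 CPM over all libraries, while 5 sperm markers summed to 0.105 to 0.577 CPM. In RNA from whole worms, fewer cells of a type and less RNA per cell cannot be told apart.

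Levels were compared between genes as CPM per kilobase of exonic length. In the L4440 libraries the 34 genes ran from 36.6 for ucr-2.2 to 1191 for atp-2, a 32.5-fold range with a median of 206 CPM per kilobase. Of the 34 genes, 29 lay above the 90th percentile of all tested genes on this scale, and the lowest, ucr-2.2, lay at the 70.9th. The complex V genes atp-2 and atp-1, which encode the beta and alpha subunits of the catalytic head, were highest, at 1191 ± 115 and 920 ± 73.4 CPM per kilobase (SD, n = 3). Cytochrome c followed, with cyc-2.1 at 685 ± 69.6 CPM per kilobase.

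Complex IV was the most even of the complexes in level, since its highest member, cox-6B (499 ± 55.5 CPM per kilobase), lay only 2.34-fold above its lowest, cox-6C (213 ± 22.2). Medians of the complexes in L4440 were 133 CPM per kilobase for complex I, 142 for complex II, 182 for complex III, 365 for complex IV and 468 for complex V. The lowest member was gas-1 in complex I (43.5), sdha-1 in complex II (49.3), ucr-2.2 in complex III and asb-2 in complex V (117). Each of these 4 genes is on the X chromosome. The highest was nuo-1 in complex I (198 ± 18.9), sdhb-1 in complex II (176 ± 4.81) and isp-1 in complex III (275 ± 23.1 CPM per kilobase).

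**Figure D1:**
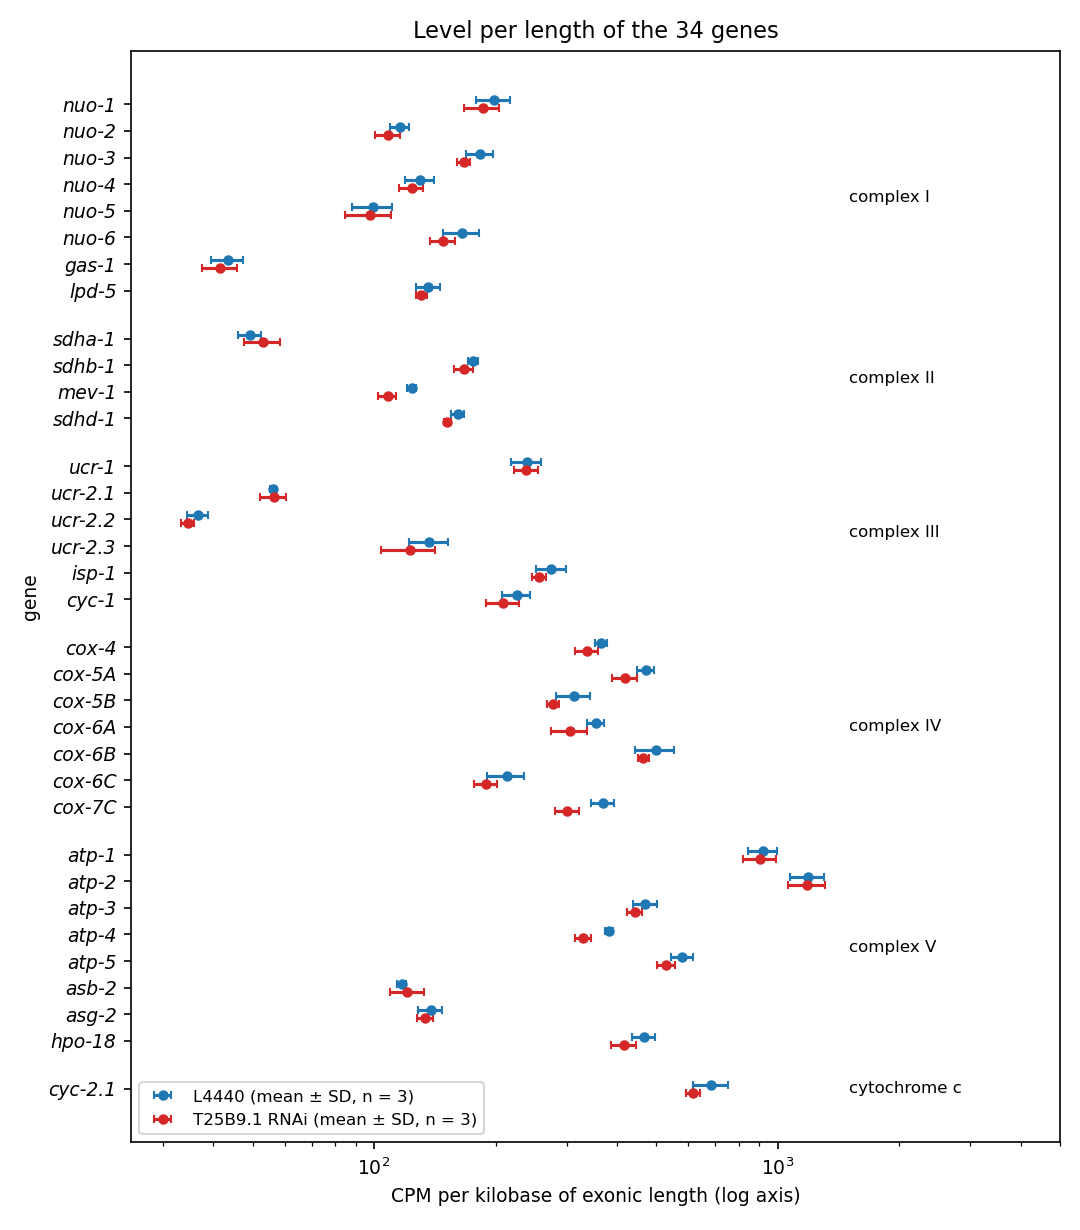
Mean CPM per kilobase of exonic length (log axis) of each of the 34 genes with L4440 (blue) and with T25B9.1 RNAi (red), with bars of 1 SD (n = 3), grouped by complex. With L4440, atp-2 (1191) and atp-1 (920) are highest and ucr-2.2 (36.6) is lowest.

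The comparison of T25B9.1 RNAi with L4440 called none of the 34 genes. In edgeR's quasi-likelihood test 0 of the 34 had an adjusted p under 0.05 over all 13374 genes (lowest adjusted p = 0.717), in a comparison that called 0 genes in all (0%). At an unadjusted p under 0.05 there were 4 of the 34, all lower with RNAi, beside a background of 2.17% of genes lower, and 0 were higher beside 4.01%. DESeq2 called 0 of the 34 (lowest adjusted p = 0.348) while calling 0.104% of its genes, and limma-voom called 0 of the 34 (lowest adjusted p = 0.762) and 0 genes in all (0%). The largest difference was an 18.4% lower mean level, for cox-7C.

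Differences of 31 of the 34 genes lay below 0, where 49.4% of all tested genes did. That background depends on level, and the 5673 protein-coding genes of up to 10 CPM, with 32.9% below 0, include 0 of the 34. Among protein-coding genes of 50 to 100 CPM 70.3% were below 0, beside 7 of 8 members. From 100 to 250 CPM it was 64.4%, beside 12 of 14 members, from 250 to 1000 CPM 64.5%, beside 10 of 10, and over 1000 CPM 82.9%, beside both members. In these classes all such genes had medians of -0.050, -0.036, -0.037 and -0.139, and the members -0.074, -0.140, -0.108 and -0.015. Within the 34 genes Spearman's rho between level per kilobase and log2 fold change was -0.40, as a description over genes that share the same libraries. That measure divides by exonic length, which itself had a rho of 0.70 with log2 fold change in these genes. The median log2 fold change was -0.101 for the 34 genes and 0.002 for all tested genes, and the 34 ran from -0.29 for cox-7C to 0.10 for sdha-1. SEs of single genes were between 0.0599 and 0.120 on the log2 scale. Relative to the mean of the L4440 libraries, the median of the 34 genes in single libraries was 0.077, -0.058 and -0.017 in L4440 replicates 1, 2 and 3, and -0.142, -0.056 and -0.138 in RNAi replicates 1, 2 and 3. These medians averaged 0.001 ± 0.069 with L4440 and -0.112 ± 0.048 with RNAi (SD, n = 3). RNAi replicate 2 lay level with L4440 replicate 2, so the groups overlapped, and L4440 replicate 1 was the highest library. Without L4440 replicate 1 the median was -0.053 with 25 of 34 genes below 0, and without RNAi replicate 1 it was -0.085 with 32 below 0.

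The extremes were unevenly spread over the libraries. L4440 replicate 1 held the highest level of 22 of the 34 genes and the lowest of 0. RNAi replicate 1 held the lowest level of 15 genes and RNAi replicate 3 of 11, and in RNAi replicate 3 all but 1 of the 34 genes lay below the L4440 mean (33 genes). Over all tested genes, deviations from the group mean correlated at 0.216 to 0.418 in pairs of libraries with consecutive numbers in the labels. By the median of the 34 genes, however, library 13 was the highest and library 14 the lowest. The labels name nothing that libraries with consecutive numbers share. Within those pairs the median difference was -0.223 between libraries 13 and 14 (31 of 34 below 0), 0.010 between 17 and 18 (14 of 34 below 0) and -0.106 between 21 and 22 (30 of 34 below 0). With the pairs as a block in edgeR, there were 5 of the 34 genes, each of them lower with RNAi, at an unadjusted p under 0.05, beside 4.01% of all genes lower and 6.89% higher, and 0 of the 34 had an adjusted p under 0.05 beside 0% of all genes.

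**Figure D2:**
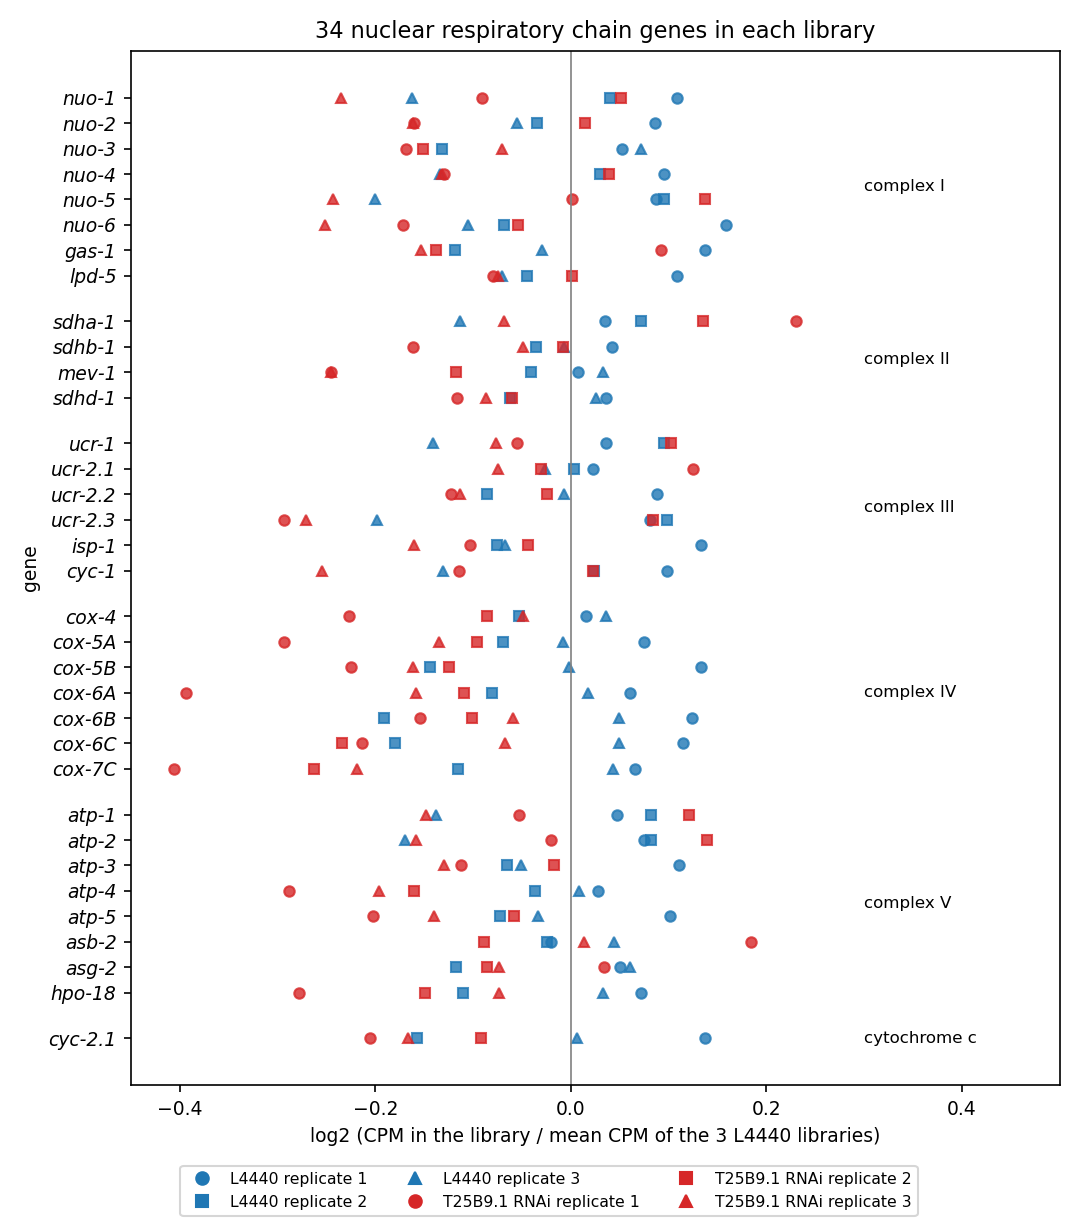
Log2 ratio of the CPM in each library to the mean of the 3 L4440 libraries (x axis) for each of the 34 genes, by complex, with L4440 in blue, T25B9.1 RNAi in red and a symbol for each replicate. Most red points lie left of 0 (31 of 34 fitted differences are below 0), the groups are apart only in mev-1, cox-5A, cox-6A, cox-7C and atp-4, and RNAi replicate 1 (red circles) is at the far right in sdha-1, ucr-2.1 and asb-2.

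The groups did not overlap for 5 of the 34 genes, all lower with RNAi, beside 5.32% of all tested genes (5.53% were apart in the other direction, with 0 of the 34). These were 3 genes of complex IV, 1 of complex II and 1 of complex V. They are described first.

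Complex IV, cytochrome c oxidase, had all 7 nuclear genes below 0 and the lowest median of the complexes, -0.170. Complex IV also had the shortest genes, with a median of 572 exonic bases against 890.5 to 1435 in complexes I, II, III and V. Its smallest gene, cox-7C, encodes a small membrane-spanning subunit. The gene cox-7C (WBGene00009161) occupies chromosome I from 9773172 to 9774012 on the plus strand of WBcel235, and its 2 exons hold 389 bases. The level of cox-7C was 150, 132 and 148 CPM in the L4440 libraries and 108, 120 and 123 CPM in the RNAi libraries. Every RNAi library was below every control library. The log2 fold change was -0.29 (SE 0.0777), with an unadjusted p = 0.00445 and an adjusted p = 0.717 (edgeR).

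The subunit gene cox-6A (WBGene00006519), on chromosome III from 5081724 to 5082995, was at 198, 179 and 192 CPM with L4440 and at 144, 176 and 170 CPM with RNAi. The gap between the groups was narrow and RNAi replicate 1 was far below the other libraries. Its log2 fold change was -0.22 (SE 0.0867, unadjusted p = 0.0352, edgeR), and -0.14 without RNAi replicate 1, where the unadjusted p was no longer under 0.05. For cox-5A (WBGene00012553), on chromosome III from 12905491 to 12906619, the levels were 369, 334 and 348 CPM with L4440 and 286, 328 and 319 CPM with RNAi. Here too the groups were barely apart (log2 fold change -0.17, SE 0.0789, edgeR unadjusted p = 0.0573). The other complex IV genes overlapped, and ran from -0.17 for cox-5B, also known as cco-1 and often knocked down to provoke the mitochondrial stress response, to -0.10 for cox-6B. The level of cox-6B was 311, 250 and 296 CPM with L4440 and 257, 266 and 274 CPM with RNAi, so that L4440 replicate 2 was the lowest library of all 6.

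In each library the median of the 7 complex IV genes was 0.074, -0.115 and 0.036 with L4440 and -0.227, -0.109 and -0.135 with RNAi. L4440 replicate 2 lay among the RNAi libraries, and RNAi replicate 1 was lowest. The median of the complex was -0.137 without RNAi replicate 1 and -0.111 without L4440 replicate 1, with all 7 genes below 0 in both.

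Complex II, succinate dehydrogenase, is the only complex of the chain with no mitochondrially encoded subunit. Its gene mev-1 (WBGene00003225) encodes the cytochrome b subunit that anchors the enzyme in the membrane, and mutants of it are sensitive to oxygen. It lies on chromosome III from 10334277 to 10335168 with 728 exonic bases. The level of mev-1 was 90.8, 87.9 and 92.4 CPM with L4440 and 76.2, 83.3 and 76.2 CPM with RNAi, with no overlap. The log2 fold change was -0.20 (SE 0.0641, unadjusted p = 0.0119, edgeR), and it ranged from -0.26 to -0.18 when a library was left out. The other anchor gene, sdhd-1, had a log2 fold change of -0.09 (SE 0.0599) and the iron-sulfur subunit gene sdhb-1 one of -0.07 (SE 0.0674), both with overlapping groups. For sdhb-1 the levels were 190, 180 and 184 CPM with L4440 and 165, 184 and 179 CPM with RNAi.

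The flavoprotein subunit of complex II, which binds succinate, has a pair of genes. Of these sdha-1 had the highest log2 fold change of the 34 genes, 0.10 (SE 0.0895, unadjusted p = 0.277, edgeR). Its levels were 121, 124 and 109 CPM with L4440 and 139, 130 and 113 CPM with RNAi, overlapping, with RNAi replicate 1 highest. The second gene, sdha-2, which is not among the 34, was at 210, 219 and 176 CPM with L4440 and at 180, 217 and 172 CPM with RNAi (log2 fold change -0.09, SE 0.112). Per kilobase sdha-1 stood at 0.500 ± 0.0245 of sdha-2 with L4440 and at 0.573 ± 0.0747 with RNAi (SD, n = 3), and the ratio was highest, 0.655, in RNAi replicate 1.

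Complex V had 7 of its 8 genes below 0 and a median of -0.063. The gene atp-4 (WBGene00020275) encodes coupling factor 6 of the stalk. Its place is chromosome V from 6426246 to 6427112, minus strand, with 542 bases in exons. It was at 211, 202 and 208 CPM with L4440 and at 170, 185 and 181 CPM with RNAi. Both groups were tight and apart (log2 fold change -0.21, SE 0.0650, unadjusted p = 0.00948 and adjusted p = 0.717, edgeR). The log2 fold change was -0.16 for hpo-18, the epsilon subunit, -0.13 for atp-5, the d subunit, and -0.09 for atp-3, which encodes the oligomycin sensitivity subunit, all with overlapping groups.

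The genes of the catalytic head lay nearest to 0 in this complex. The beta subunit gene atp-2 was at 2419, 2432 and 2043 CPM with L4440 and at 2266, 2530 and 2059 CPM with RNAi, a log2 fold change of -0.01 (SE 0.111). For the alpha subunit gene atp-1 it was -0.02 (SE 0.103). Both were lowest in the third replicate of either group and highest in RNAi replicate 2, so the groups were fully mixed.

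Subunit b of the ATP synthase is made from asb-2 and from asb-1, which is known as the germline form. The level of asb-2 was 137, 136 and 143 CPM with L4440 and 158, 130 and 140 CPM with RNAi (log2 fold change 0.04, SE 0.0794). That of asb-1, which is not among the 34, was 377, 363 and 335 CPM with L4440 and 301, 386 and 321 CPM with RNAi (log2 fold change -0.09, SE 0.101). In RNAi replicate 1 asb-2 was at its highest and asb-1 at its lowest level of the 6 libraries, and the ratio of asb-2 to asb-1 per kilobase was 0.455 there against 0.294 to 0.379 in the others. Subunit g has the same arrangement of an X-linked and an autosomal gene. There asg-2 was at 70.9, 63.1 and 71.4 CPM with L4440 and 70.2, 64.5 and 65.1 CPM with RNAi, and asg-1, outside the 34, had a log2 fold change of -0.16 (SE 0.0876). Their ratio per kilobase was 0.447 in RNAi replicate 1 and 0.339 to 0.360 in the other 5 libraries.

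**Figure D3:**
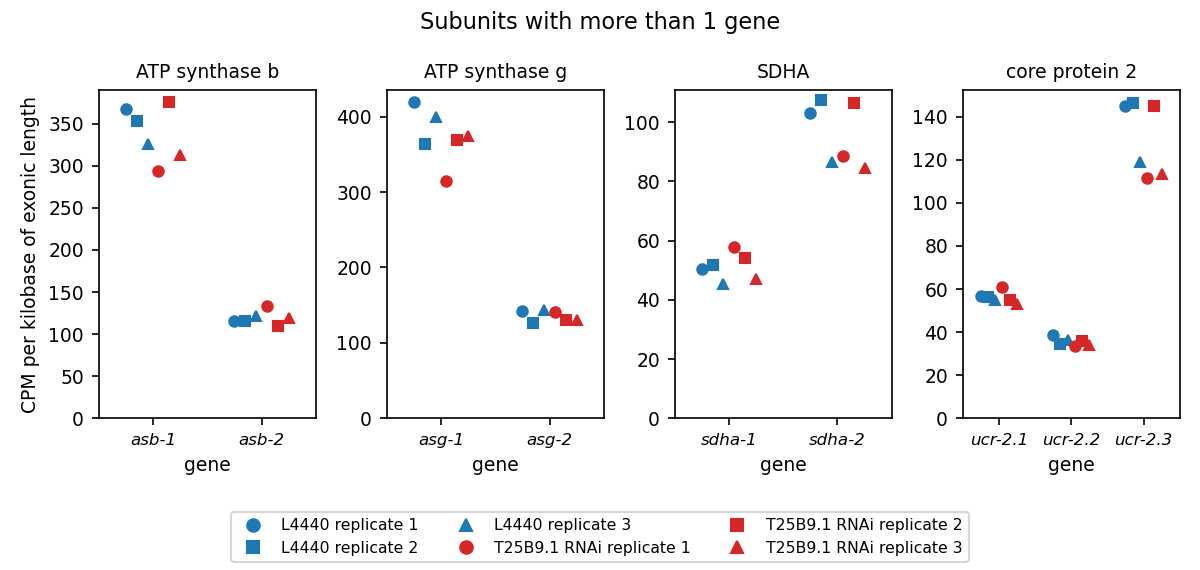
CPM per kilobase of exonic length (linear axes from 0) for subunits encoded by more than 1 gene, with a point for each library (L4440 blue, T25B9.1 RNAi red). In RNAi replicate 1 (red circles) the genes asb-2, sdha-1 and ucr-2.1 are at their highest level while asb-1 and asg-1 are at their lowest.

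Complex III had 5 of 6 genes below 0 and a median of -0.094. The Rieske iron-sulfur protein gene isp-1, a known longevity gene, was at 298, 258 and 259 CPM with L4440 and at 253, 263 and 243 CPM with RNAi. The groups overlapped (log2 fold change -0.10, SE 0.0792). The cytochrome c1 gene cyc-1 had a log2 fold change of -0.11 (SE 0.0933) and the core protein gene ucr-1 one of -0.01 (SE 0.0876). Core protein 2 has 3 genes, which differed in level and in behaviour across libraries. The most abundant, ucr-2.3, was at 196, 198 and 161 CPM with L4440 and at 151, 196 and 153 CPM with RNAi (log2 fold change -0.15, SE 0.120). The X-linked ucr-2.1 was at 81.6, 80.4 and 78.8 CPM with L4440 and at 87.5, 78.6 and 76.2 CPM with RNAi, and ucr-2.2, also on the X chromosome, was at 55.9, 49.5 and 52.3 CPM with L4440 and at 48.3, 51.7 and 48.6 CPM with RNAi. Both overlapped between groups (log2 fold changes 0.01, SE 0.0696, and -0.09, SE 0.0717).

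Complex I, NADH dehydrogenase, had all 8 genes below 0 with a median of -0.080, and none had an unadjusted p under 0.05 in edgeR (0 of 8). The membrane-arm gene nuo-6, where a point mutation is known to extend lifespan, was lowest, with a log2 fold change of -0.16 (SE 0.0874). It was at 120, 102 and 99.9 CPM with L4440 and at 95.4, 104 and 90.2 CPM with RNAi, overlapping. The flavoprotein gene nuo-1, which receives the electrons of NADH, was at 342, 326 and 283 CPM with L4440 and at 298, 329 and 269 CPM with RNAi (log2 fold change -0.09, SE 0.0989). The gene of the largest subunit, nuo-5, was nearest to 0, at 258, 259 and 211 CPM with L4440 and at 243, 267 and 205 CPM with RNAi (log2 fold change -0.03, SE 0.115). For nuo-1 and nuo-5, as for atp-2, the third replicates of both groups were the lowest libraries. The accessory subunit gene lpd-5 had a log2 fold change of -0.05 and gas-1, which encodes a core subunit near the ubiquinone site, one of -0.06.

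Cytochrome c, the soluble carrier between complexes III and IV, is encoded by cyc-2.1 and cyc-2.2. The level of cyc-2.1 was 414, 337 and 378 CPM with L4440 and 326, 353 and 335 CPM with RNAi, with overlap (log2 fold change -0.15, SE 0.0873, unadjusted p = 0.112, edgeR). The second gene, cyc-2.2, was at most 0.108 CPM in any library and did not pass the filter.

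Shorter genes had lower log2 fold changes. All 18 of the 34 genes with up to 1000 exonic bases lay below 0, and 13 of the 16 longer ones did. Spearman's rho between exonic length and log2 fold change was 0.70 across the 34 genes and 0.33 across the 12762 protein-coding genes tested, given as a description, since all genes share the same 6 libraries. The median exonic length was 952.5 bases for the 34 genes and 1415 for all tested genes. Among protein-coding genes of 500 to 1000 bases the median log2 fold change was -0.058, with 63.3% below 0, while the 14 members of that class had a median of -0.143. In the class of 1000 to 1500 bases the medians were -0.028 for all such genes and -0.086 for 8 members, and from 1500 to 2000 bases they were -0.012 and -0.063 for 5 members. After each library was corrected for a trend with exonic length, 29 of the 34 genes were below 0, beside 52.0% of all genes, with a median of -0.069. Spearman's rho between exonic length and the corrected log2 fold change was still 0.32 across the 34 genes. The correction left an unadjusted p under 0.05 for 1 of the 34, cox-7C (log2 fold change -0.20, unadjusted p = 0.00466, edgeR). Over all 13281 genes with a length, 300 were then lower and 498 higher at that level. With the pairs of consecutive library numbers added as a block there were 4 of the 34, all lower: mev-1, cox-6A, cox-7C and atp-4. Over all genes 689 were lower and 879 higher in that fit. After the correction alone the medians were -0.068, -0.029, -0.068, -0.116 and -0.046 in complexes I to V.

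**Figure D4:**
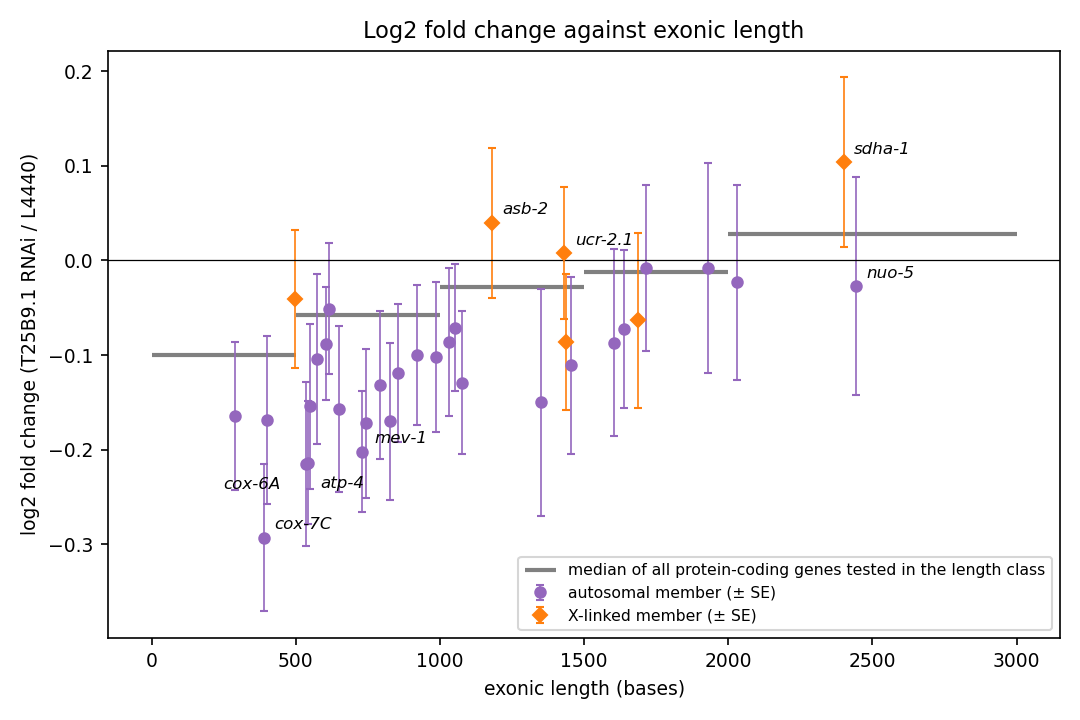
Log2 fold change with its SE (y axis) against exonic length in bases (x axis) for the 34 genes, X-linked ones as orange diamonds, with grey bars at the median of all protein-coding genes tested in each length class. Shorter members lie lower (rho 0.70), cox-7C is lowest at -0.29, and the 3 genes above 0 are X-linked.

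The 3 genes above 0, sdha-1, asb-2 and ucr-2.1, are all on the X chromosome, a feature looked at after the values were seen. The 34 genes include 6 X-linked ones, with a median log2 fold change of -0.016, and 28 autosomal ones, all 28 below 0 with a median of -0.115. The background differed in the same direction: the 1890 X-linked protein-coding genes tested had a median of 0.070 with 35.1% below 0, and the 10861 autosomal ones had -0.011 with 52.7% below 0. In RNAi replicate 1 the 6 X-linked members stood at a median of 0.108 above the L4440 mean and the 28 autosomal ones at -0.165, while in RNAi replicates 2 and 3 the X-linked medians were -0.058 and -0.074 and the autosomal ones -0.056 and -0.153. Without RNAi replicate 1 the median of the X-linked members was -0.064, with sdha-1 (0.03) the 1 of the 6 above 0, and the X-linked background had a median of 0.021. The X-linked members were also longer (median 1435 exonic bases against 841) and lower in level (median 52.7 against 257 CPM per kilobase with L4440). After the length correction the medians were 0.031 for the X-linked and -0.075 for the autosomal members. Chromosome, length and level were not tested apart. RNAi replicate 1 is the library with the high moulting, pharynx and muscle marker levels given above, and their part in the result was not tested.

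Other genes of the same pathway also lay mostly below 0. A list of 34 further nuclear subunit genes had 33 tested, of which 32 were below 0, with a median log2 fold change of -0.133, and 6 had groups that did not overlap, all lower, beside 5.32% of all tested genes. At an unadjusted p under 0.05 there were 0 of the 33 in edgeR, and 0 passed after adjustment. The smallest p belonged to ndua-5, ndub-11 and ndub-8, accessory subunit genes of complex I. The level of ndua-5 was 82.5, 69.9 and 70.7 CPM with L4440 and 59.4, 71.2 and 63.9 CPM with RNAi (log2 fold change -0.20, SE 0.0920), with overlap. For ndub-11 the log2 fold change was -0.18 (SE 0.0841) and for ndub-8 it was -0.16 (SE 0.0782).

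The subunits encoded by mitochondrial DNA had a lower median than the nuclear ones. Of 12 such genes 11 passed the filter and 11 were below 0, with a median of -0.246 and a range from -0.38 to -0.15. The lowest, ND3 (SE 0.395), had only 58 to 183 counts per library. ND2 and ND6, both at -0.31 (SE 0.594 and 0.227), had 76 to 370 and 39 to 68 counts. The lowest of the remaining genes was COX1, at -0.28 (SE 0.114). At an unadjusted p under 0.05 there were 4 of the 11, all lower, beside 2.17% of all tested genes, and 0 passed after adjustment (lowest adjusted p = 0.717, edgeR). The complex IV core gene COX3 was at 618, 615 and 675 CPM with L4440 and at 485, 537 and 586 CPM with RNAi, with no overlap (log2 fold change -0.25, SE 0.0892, unadjusted p = 0.0223, edgeR). The complex I gene ND1 was at 228, 197 and 230 CPM with L4440 and at 170, 189 and 196 CPM with RNAi, also apart. COX1, the catalytic subunit of complex IV, was at 2070, 1714 and 2040 CPM with L4440 and at 1396, 1676 and 1723 CPM with RNAi, where L4440 replicate 2 overlapped with RNAi replicate 3.

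By library the median of these 11 genes was 0.061, -0.156 and 0.072 with L4440 and -0.361, -0.212 and -0.119 with RNAi. The groups overlapped through L4440 replicate 2. Without RNAi replicate 1 all 11 stayed below 0 with a median of -0.182, and 0 had an unadjusted p under 0.05 in edgeR. Over all 13374 genes the number lower at that level also fell, from 290 to 96. In the length correction the median of the 11 genes was -0.194. Neighbouring mitochondrial genes are cut from shared precursor transcripts and some overlap by a few bases, so the 11 genes are not separate measurements. Whether they differed from the nuclear subunits was not tested.

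Of the genes that build or serve the chain, assembly factor genes were mostly below 0 too. The ubiquinone synthesis list and the list of carriers, porin and inhibitors had 62.5% and 60.0% below 0, near the background. That was 59.5% among protein-coding genes of 10 to 50 CPM and 64.4% from 100 to 250 CPM. Median levels with L4440 were 24.7 CPM for assembly factors, 27.7 for ubiquinone synthesis and 169 for the carrier list. Of 12 assembly factor genes 10 were below 0, with a median of -0.065, and of -0.081 without L4440 replicate 1, where the 34 genes had -0.053. The smallest unadjusted p among them, 0.0938 in edgeR, belonged to cox-17, a copper chaperone for complex IV, at 11.9, 8.03 and 9.88 CPM with L4440 and 7.78, 7.90 and 8.63 CPM with RNAi. The next by p were sft-1, the worm counterpart of the complex IV assembly factor SURF1 (log2 fold change -0.21, SE 0.112), and sco-1, which delivers copper (-0.13, SE 0.0710). Of 8 genes of ubiquinone synthesis 5 were below 0 (median -0.043), with coq-6 at -0.14 (SE 0.0793), coq-3 at -0.14 (SE 0.112) and coq-5 at -0.08 (SE 0.0714). Of 7 genes for the ADP/ATP carrier, the porin and the inhibitors of ATP synthase 5 were tested and 3 were below 0 (median -0.088). The inhibitor gene mai-2 was at 178, 159 and 171 CPM with L4440 and at 149, 156 and 156 CPM with RNAi, with no overlap (log2 fold change -0.14, SE 0.0669). The carrier gene ant-1.3 was at 0.433 to 0.874 CPM in all libraries (log2 fold change 0.38, SE 0.275), and the porin gene vdac-1 had a log2 fold change of -0.10 (SE 0.0903). In none of these 3 lists did a gene have an unadjusted p under 0.05 (0 genes, edgeR).

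Lists outside the chain also had medians below 0. The median was -0.105 for 69 mitochondrial ribosomal protein genes (66 below 0), -0.100 for 33 proteasome genes (32 below 0) and -0.200 for 80 cytosolic ribosomal protein genes (78 below 0). In that order, 2, 1 and 34 genes had an unadjusted p under 0.05 in edgeR, all lower, beside 2.17% of all tested genes lower. The groups did not overlap for 14, 1 and 40 genes, all lower, beside 5.32%. RNAi replicate 1 had the lowest median of the 6 libraries in each of these lists (-0.157, -0.200 and -0.298), and L4440 replicate 1 the highest (0.077, 0.089 and 0.106). The same was true of the 34 respiratory chain genes, at -0.142 and 0.077. No difference between the lists was tested.

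**Figure D5:**
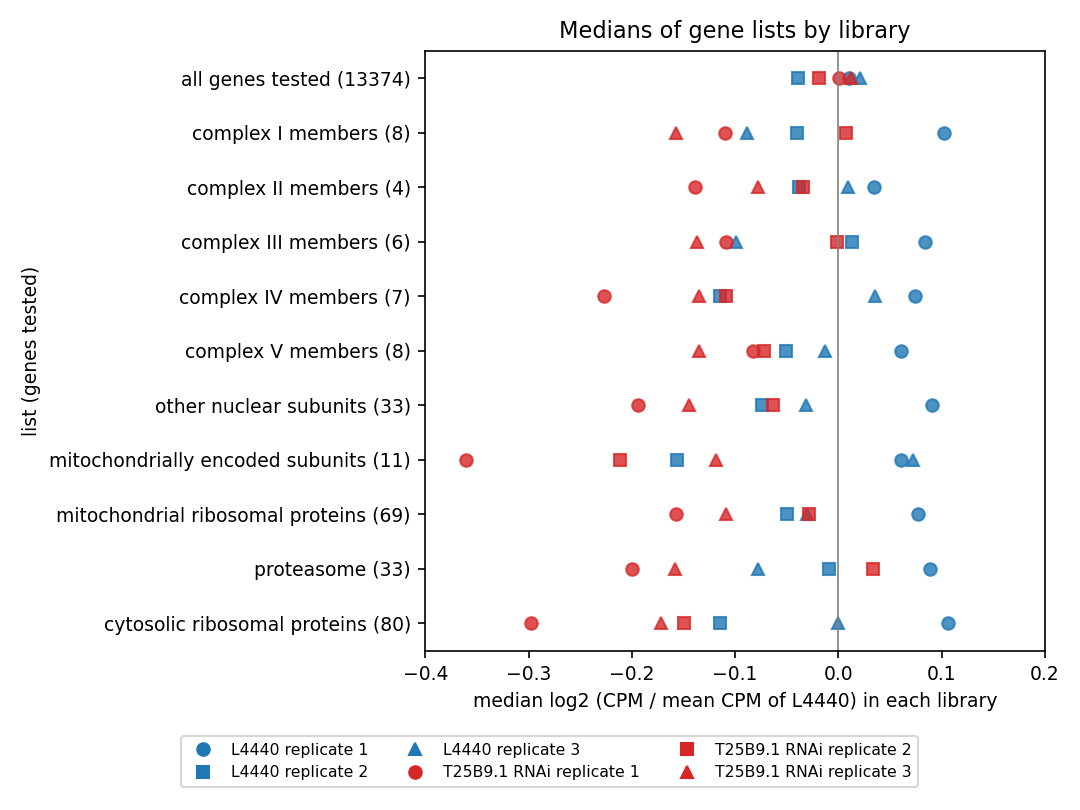
Median log2 ratio to the L4440 mean (x axis) of each gene list in each library, with the number of genes tested in brackets. L4440 replicate 1 (blue circles) lies above 0 in every list shown, up to 0.106 in the cytosolic ribosomal proteins, and the red points of the mitochondrial, ribosomal and proteasome lists reach from 0.034 (proteasome, RNAi replicate 2) to -0.361 (mitochondrially encoded subunits, RNAi replicate 1).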

How the data were processed

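The deposited file used here holds raw counts of each gene in 6 libraries. Per the labels' protocols they were TruSeq RNA v2 libraries, which carry no strand information. The submitters' processing notes name featureCounts 1.4.6-p4, STAR 2.4.1d, bcl2fastq 1.8.4 and the build WBcel235. Their options and the annotation release are not given in the sources used. A second deposited table of normalized values was not used, because its step from count to value could not be reconstructed.

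Groups came from the perturbation label, and replicate numbers follow accession order. The members and lists were chosen with earlier results of these data known. Counts of 13374 genes kept by filterByExpr were TMM-scaled, then tested in edgeR 4.0.16 (R 4.3.3; quasi-likelihood, 2-sided, Benjamini-Hochberg over all genes, threshold 0.05). SE is the log2 fold change divided by the square root of F. An exact permutation test of 3 against 3 cannot go below p = 0.1 and was not used. Alternatives were other scalings and filters, DESeq2 1.42.0, limma-voom (limma 3.58.1), each library left out, a block and a lowess length correction (span 0.3, 13281 genes with a length). The test was checked on simulated data.

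In the labels the L4440 libraries carry the numbers 13, 17 and 21, and the RNAi libraries 14, 18 and 22. Deviations from the group means correlated at 0.216, 0.418 and 0.285 across genes for consecutive numbers. For the other pairs across groups the values were -0.382 to 0.101. A link between consecutive numbers is a hint from the data and not from the labels. To look for duplicate libraries, count profiles were compared, and the smallest chi-square between a pair, divided by the number of genes, was 6.59. That pair was libraries 17 and 18, and the largest value, 47.9, was between 13 and 14.

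Names, places and exonic lengths (all annotated exons merged) came from Ensembl release 115 on WBcel235, which held 46449 of the deposited identifiers. Names of the 12 mitochondrial genes came from RefSeq genes at the same place. Named genes are the target, members whose groups do not overlap, the extremes and the most abundant member of each complex, cytochrome c, genes for the same subunit, and the 3 smallest p in each other list. The marker symbol ssp-9 fits 2 genes and was left out. Genes for the same subunit may share reads. The largest overlap of a member with another annotated gene was that of nuo-3, which shares 783 of its 1078 exonic bases with a protein-coding gene on the same strand. The next was cyc-1, which shares 61 exonic bases with C54G4.7 on the opposite strand. How reads from shared bases were counted is not given in the sources used, and the effect on nuo-3 was not tested.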

Additional observations from a re-analysis of the deposited data

How the results depend on the processing

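The number of the 34 genes with an adjusted p under 0.05 was 0 in each of the 16 alternatives run. Over all genes the number called was 0 with edgeR's TMM fit and 14 with DESeq2, 1 with RLE scaling, 1 with the length correction, 139 with no filter and 17 with the replicate block and the length correction together. It was 0 to 1 when a library was left out. The median of the 34 genes stayed below 0 in each alternative. Its extremes were -0.149, with T25B9.1 RNAi replicate 2 left out, and -0.053, with L4440 replicate 1 left out, and the number below 0 from 25 to 32. Genes with an unadjusted p under 0.05, 4 in the TMM fit, were 1 in the length correction and 3 to 10 with a library left out (10 when this was L4440 replicate 2, and 7 when it was T25B9.1 RNAi replicate 2). The number over all genes moved too, from 826 in the TMM fit to 798 in the length correction. With a library left out it was 313 to 1398 (1085 for L4440 replicate 2 and 1398 for T25B9.1 RNAi replicate 2). With a library left out the medians ran from -0.142 to -0.027 in complex I, -0.120 to -0.054 in II, -0.142 to -0.036 in III, -0.230 to -0.111 in IV and -0.129 to -0.022 in V. The replicate block of consecutive library numbers gave a median of -0.099 and changed no call among the 34 genes.

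Single genes near 0 changed sign. The log2 fold change of nuo-5 with a library left out was -0.14 to 0.07, and above 0 without L4440 replicate 1 (0.02), L4440 replicate 2 (0.03) or T25B9.1 RNAi replicate 3 (0.07). That of ucr-2.1 was -0.00 with DESeq2, -0.01 with no filter, and -0.01 and -0.06 without L4440 replicate 3 and T25B9.1 RNAi replicate 1. For asb-2 it was -0.04 to 0.08, lowest when T25B9.1 RNAi replicate 1 was left out, and for asg-2 it was 0.04 in the length correction with or without the block. For atp-2 it was 0.02 with upper quartile scaling or library totals only, 0.01 with the stricter filter, and -0.11 to 0.06 with a library left out (0.03 and 0.04 for L4440 replicates 1 and 2, 0.06 for T25B9.1 RNAi replicate 3). The cause was not tested. Over 38 named genes, 586 of 607 gene and setting pairs kept direction and call, and in 5 T25B9.1 passed the threshold that it missed in the TMM fit.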
